A study of Mus musculus with 4 samples.

Results

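The genes described here are 3 metallothioneins, Mt1, Mt2 and Mt3, and 7 antioxidant genes known as targets of the transcription factor NRF2, namely Hmox1, Nqo1, Gclm, Gclc, Srxn1, Txnrd1 and Slc7a11. They were chosen by name and found by Ensembl identifier, which gave all 10 among the 55421 genes listed in the count files. Their RNA was measured in cells of the prefrontal cortex (PFC) of wild-type C57BL/6 mice taken at postnatal day 0. The cells were dissociated and cultured for 10 days either with fibroblast growth factor 2 (FGF2) at 5 ng/mL (2 libraries) or without FGF2 (2 libraries). Both groups received neurobasal medium with the B27 supplement, which itself contains antioxidants such as catalase, superoxide dismutase and glutathione. The comparison asks which transcripts differed between cultures with and without FGF2 in otherwise equal medium. The methods of the study call the replicates technical for every sample apart from certain human ones, and the labels of these libraries name no separate cultures or animals. The p-values therefore rest on the spread between these libraries, in part shared between genes, and that spread may be technical only.

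Metallothioneins are small proteins rich in cysteine that bind zinc and copper and can react with oxidants. Mt1 and Mt2 are induced in most tissues by metals through the transcription factor MTF1, and also by glucocorticoids and cytokines, and in the brain astrocytes are a main site of their expression. Mt3 was first known as a growth inhibitory factor of the brain and responds little to metals. NRF2, encoded by Nfe2l2, is held at a low level by KEAP1, which passes it to a ubiquitin ligase. Oxidants and electrophiles block this step, and NRF2 then pairs with a small MAF protein and binds the antioxidant response element of genes for glutathione synthesis, thioredoxin reduction and detoxification. BACH1 competes for the same element as a repressor.

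The promoters of Mt1, Mt2, Mt3 and Srxn1 are shown first. The metallothioneins share one chromosomal cluster and yet differed in size of change, and Srxn1 is the antioxidant gene whose call held under each alternative tried. Each sequence is the 250 bases before the start annotated by RefSeq (build GRCm38.p6), from 5′ to 3′. Capitals mark the core of the metal response element (TGCACNC or TGCGCNC) in Mt1, Mt2 and Mt3, and a core of the antioxidant response element spelled TGAGNNNGC in Srxn1, on either strand.
Mt1 (chr8:94178839-94179088, plus strand): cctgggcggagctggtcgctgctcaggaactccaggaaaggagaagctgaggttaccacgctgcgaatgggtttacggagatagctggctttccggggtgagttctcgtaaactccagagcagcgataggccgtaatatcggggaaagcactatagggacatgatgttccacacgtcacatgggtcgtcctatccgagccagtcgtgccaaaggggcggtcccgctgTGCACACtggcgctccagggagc
Mt2 (chr8:94172368-94172617, plus strand): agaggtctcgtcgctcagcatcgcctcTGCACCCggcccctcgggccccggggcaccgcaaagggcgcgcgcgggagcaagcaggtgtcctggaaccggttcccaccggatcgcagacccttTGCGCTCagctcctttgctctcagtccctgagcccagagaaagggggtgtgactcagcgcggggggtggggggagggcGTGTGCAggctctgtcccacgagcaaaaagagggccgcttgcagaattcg
Mt3 (chr8:94152357-94152606, plus strand): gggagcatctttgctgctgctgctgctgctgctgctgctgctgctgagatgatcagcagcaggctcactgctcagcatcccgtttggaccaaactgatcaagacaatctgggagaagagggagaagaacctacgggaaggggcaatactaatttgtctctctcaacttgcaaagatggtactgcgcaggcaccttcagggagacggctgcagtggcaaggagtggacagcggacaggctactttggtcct
Srxn1 (chr2:152105274-152105523, plus strand): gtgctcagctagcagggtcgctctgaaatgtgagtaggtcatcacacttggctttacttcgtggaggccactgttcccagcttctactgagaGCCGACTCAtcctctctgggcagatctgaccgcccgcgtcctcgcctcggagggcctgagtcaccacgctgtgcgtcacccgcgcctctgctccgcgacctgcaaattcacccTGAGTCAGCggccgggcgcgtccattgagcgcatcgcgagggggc

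The Mt1 window held 1 metal response core, 23 to 17 bases before the start, the Mt2 window held 3 and the Mt3 window held none. Bases after the annotated start were not searched, so these are counts for the windows alone. The GENCODE start of Mt1 (94179082) lies inside its window, and that of Mt2 (94172664) lies past the end of its window (94172617). The counts therefore depend on the start used and do not rank the 3 genes. Among the windows of the same length in the RefSeq table, 32851 in number, 21.4% held at least 1 such core and 1.26% held at least 3. The Mt2 window also held the core TGACNNNGC, 79 to 71 bases before the start, a spelling found in 10.2% of all windows. The spelling TGAGNNNGC was searched after the windows had been seen. It occurred in 14.4% of all windows, with 2 matches in Srxn1, 1 in Slc7a11 and 1 in Mt3. TGACNNNGC was matched in Gclm and in 1 of the 3 Txnrd1 windows, the Nqo1 window held none of the 3 cores, and in Gclm the antioxidant core overlapped 1 of its 2 metal response cores. RefSeq windows were matched for 8 of the 10 genes, and Hmox1 and Gclc were not matched. These matches describe letters and not binding.

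Counts on genes totalled 9166432 to 10799886 per library, so that 3 counts, taken as the limit of detection, corresponded to 0.278 to 0.327 CPM, the count of a gene scaled to a common library total. These limits cover counting error only. Levels are given as CPM after scaling by trimmed means (TMM), as the mean ± SD over 2 libraries, and fold changes are FGF2 over no FGF2. A gene was called where the adjusted p-value of edgeR's quasi-likelihood test (Benjamini-Hochberg over 17144 tested genes) was below 0.05. This test shares spread between genes, so the SE and interval of a gene can be narrower than its own libraries would give. Of all genes tested, 20.7% were called higher and 19.9% lower with FGF2. The groups were apart with FGF2 above for 33.6% of genes and with FGF2 below for 33.4%. The RNA of cell type markers also differed between the groups. All 9 tested oligodendrocyte lineage markers and 8 of 10 astrocyte markers were called higher with FGF2, and 10 of 12 neuron markers were called lower. Against their lists, the astrocyte marker Fgfr3 was called lower (log2 fold change -0.44) and the neuron marker Nefl higher (0.38). In bulk RNA, fewer cells of a type and less RNA per cell cannot be told apart.

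All 10 genes passed the expression filter. With FGF2, 4 were called higher (Mt1, Mt2, Mt3 and Slc7a11) and 3 lower (Nqo1, Srxn1 and Txnrd1), while Hmox1, Gclm and Gclc were not called. The 7 calls of 10 compare with 40.5% called in either direction over all genes, and the median log2 fold change of the 10 genes was 0.036 beside -0.00082 over all genes tested. The libraries of the groups did not overlap for 8 genes, 5 with FGF2 above and 3 below, beside 67% of all genes in either direction. DESeq2, which called 11.6% of its tested genes higher and 10.8% lower (22.4% in either direction), called Mt1 and Mt2 higher and Srxn1 lower, and no other of the 10. The number called lower was 1 when FGF2 replicate 1, noFGF2 replicate 1 or noFGF2 replicate 2 was left out.

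**Figure D1:**
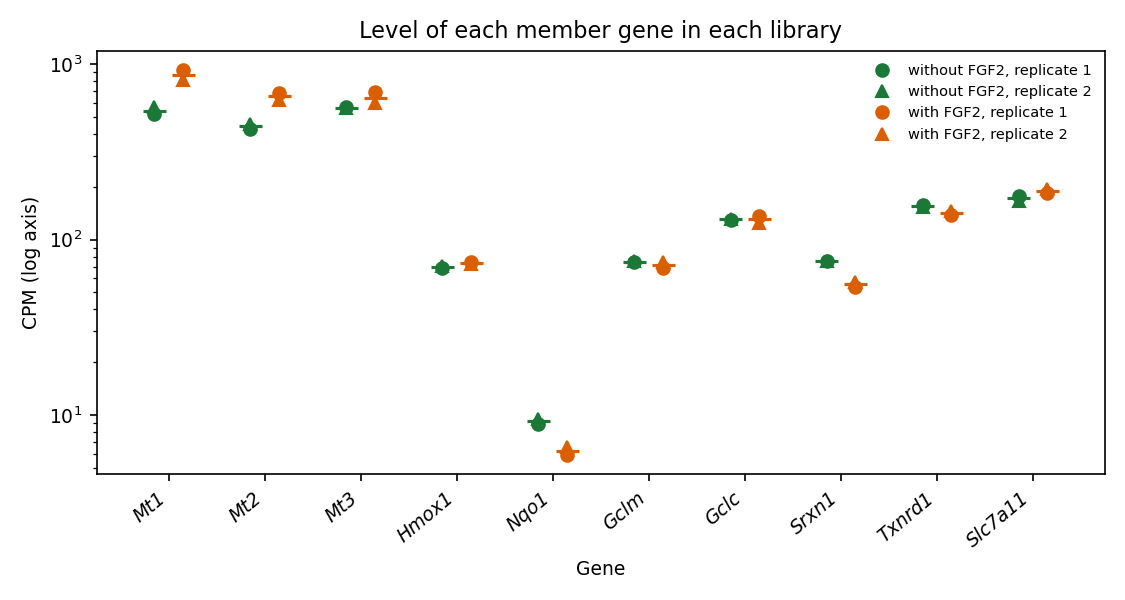
Level of each of the 10 genes in every library, in TMM-adjusted CPM on a log axis. Circles and triangles are replicates 1 and 2, and bars are group means. Mt1 and Mt2 lie higher in both libraries with FGF2, and Nqo1 and Srxn1 lower.

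Mt1 (ENSMUSG00000031765, chr8:94179082-94180327, plus strand) was the gene with the largest rise of the 10. Its levels were 921 and 809 CPM with FGF2 and 515 and 567 CPM without FGF2, from 5428 to 8383 counts. The groups did not overlap. The means of 865 ± 79.7 and 541 ± 36.3 CPM gave a log2 fold change of 0.68 (SE 0.04, 95% interval 0.61 to 0.75), a 1.60-fold rise. The adjusted p was 6.4e-62 with edgeR, 1.5e-07 with DESeq2 and 0.0053 with limma-voom. With 1 library left out, the log2 fold change ranged from 0.58 to 0.77, past both ends of the interval.

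Mt2 (ENSMUSG00000031762, chr8:94172664-94173568, plus strand) lies next to Mt1 and encodes the other widely expressed metallothionein. Its levels were 684 and 624 CPM with FGF2 and 427 and 454 CPM without FGF2. Here too the lowest value with FGF2 exceeded the highest without, with means of 654 ± 42.6 and 441 ± 19.1 CPM. The log2 fold change was 0.57 (SE 0.04, 95% interval 0.50 to 0.64), a 1.48-fold rise (edgeR adjusted p = 2.3e-51, DESeq2 adjusted p = 6.3e-25). The antisense gene Gm45774 overlaps Mt2 on the opposite strand, with 212 identical bases. It had 1 to 10 counts per library beside 4499 to 6227 for Mt2. The strand setting of the counting is not given in the sources used here. Counting without strand would leave reads of the shared stretch as ambiguous, so these low counts do not show how many reads Mt2 lost.

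Mt3 (ENSMUSG00000031760, chr8:94152607-94154146, plus strand), the brain form, changed least of the 3 metallothioneins. Its levels were 690 and 594 CPM with FGF2 and 564 and 563 CPM without FGF2. The groups were apart, but the 2 libraries with FGF2 differed from each other by more than the lower of them differed from those without FGF2. The log2 fold change of 0.19 (SE 0.04, 95% interval 0.12 to 0.26), a 1.14-fold rise, was called by edgeR (adjusted p = 1.6e-06) and not by DESeq2 (adjusted p = 0.25). Without FGF2 replicate 1 it was 0.0735 (edgeR adjusted p = 0.13). With offsets for GC content and length it was 0.34, and without FGF2 replicate 2 it was 0.29. Both values with an FGF2 library left out fell outside the 95% interval.

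The 3 genes together took 0.228% and 0.202% of gene counts with FGF2 and 0.152% and 0.159% without FGF2. This share does not rest on the TMM scaling, and it was higher in both libraries with FGF2. Count ratios within a library do not rest on the scaling either. Mt3 had 0.748 and 0.735 counts per count of Mt1 with FGF2 and 1.10 and 0.993 without FGF2. The log2 ratio of Mt3 to Mt1 was lower by 0.49 with FGF2, written as FGF2 minus no FGF2 = -0.49, from -0.43 ± 0.02 against 0.06 ± 0.10 (n = 2 libraries, two-sided exact permutation p = 0.333, the smallest this design can give). The Mt2 to Mt1 ratio was -0.40 ± 0.04 against -0.30 ± 0.03 on the same scale (difference -0.11, n = 2, exact permutation p = 0.333). Neither ratio overlapped between the groups, and neither can pass a threshold with 2 libraries a group.

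**Figure D2:**
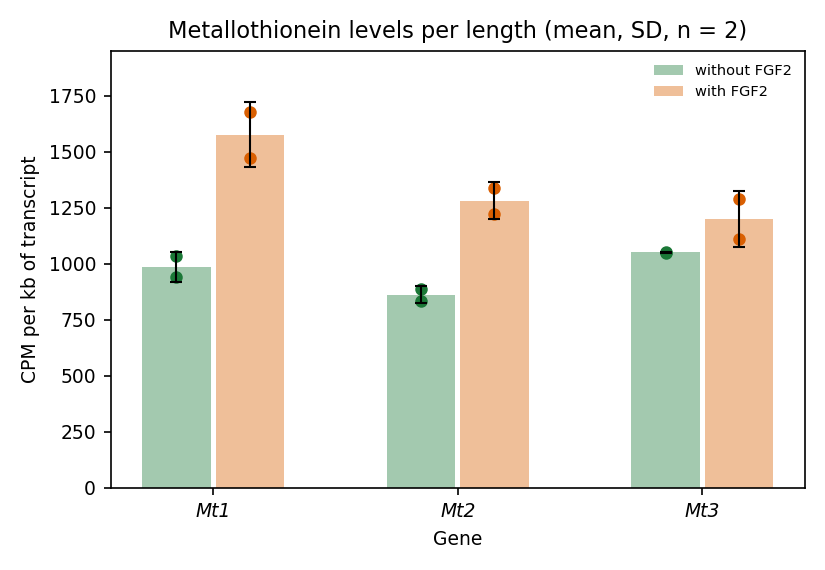
Levels of the 3 metallothioneins in CPM per kb of the longest principal transcript. The order of the genes rests on this choice of length. Bars are group means, error bars the SD over 2 libraries, and points the libraries. Mt1 is the highest of the 3 with FGF2 (1576) and Mt3 without FGF2 (1051).

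Per length of the longest principal transcript (549 bases for Mt1, 511 for Mt2 and 536 for Mt3), the order of the 3 genes differed between the groups. The order rests on the length used, since all exons together span 1246 bases for Mt1, 588 for Mt2 and 1066 for Mt3. With FGF2, Mt1 stood at 1576 ± 145 CPM per kb of transcript, above Mt2 at 1281 ± 83.4 and Mt3 at 1198 ± 125, and the last pair overlapped in their libraries. Without FGF2, Mt3 at 1051 ± 2.42 CPM per kb was above Mt1 at 985 ± 66.2 and Mt2 at 862 ± 37.4, with no overlap between neighbours. In both groups each metallothionein was far above the 7 antioxidant genes. Hmox1 had the highest mean of these 7, at 47.0 ± 1.01 and 44.6 ± 1.04 CPM per kb with and without FGF2. Without FGF2 its libraries overlapped those of Txnrd1 (43.9 ± 0.743 CPM per kb). The fourth gene of the cluster, Mt4, which is known from stratified epithelia, had 0 counts in every library.

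The 3 genes lie within 27.7 kb on chromosome 8. Their neighbours were taken within 100 kb, a distance set after the data had been seen. Of 4 neighbours tested, Ogfod1, Bbs2 and Gm45804 were not called and Nup93, a nuclear pore gene, was called lower (log2 fold change -0.43, edgeR adjusted p = 2.9e-08). Over all genes tested, 20.7% were called higher and 19.9% lower, so 4 neighbours are too few to show whether the rise is confined to the metallothioneins. The log2 fold changes of the 4 ranged from -0.46 to 0.15.

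Hmox1 (ENSMUSG00000005413, chr8:75093621-75100589) encodes heme oxygenase, which breaks down heme and is among the most inducible NRF2 targets. Its levels were 74.9 and 72.6 CPM with FGF2 and 68.8 and 71.1 CPM without FGF2. The groups were apart by less than the distance between libraries of a group, and the gene was not called (log2 fold change 0.07, SE 0.08, 95% interval -0.07 to 0.22, edgeR adjusted p = 0.47). The interval holds changes of up to 0.22 upward on the log2 scale.

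Nqo1 (ENSMUSG00000003849, chr8:107388225-107403206, minus strand), a quinone reductase used as a standard readout of NRF2 activity, was the lowest of the 10 genes. Its counts of 54 and 65 in libraries with FGF2 correspond to 5.94 and 6.59 CPM, and those of 94 and 104 in libraries without it to 8.92 and 9.58 CPM. Both values with FGF2 were below both without. The log2 fold change was -0.56 (SE 0.22, 95% interval -0.99 to -0.14), so that the level was 1.47-fold higher without FGF2 (edgeR adjusted p = 0.027). The wide interval goes with the low counts. DESeq2 did not call it (adjusted p = 0.25), nor did edgeR without FGF2 replicate 1 (adjusted p = 0.12), noFGF2 replicate 1 (adjusted p = 0.078) or noFGF2 replicate 2 (adjusted p = 0.17).

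**Figure D3:**
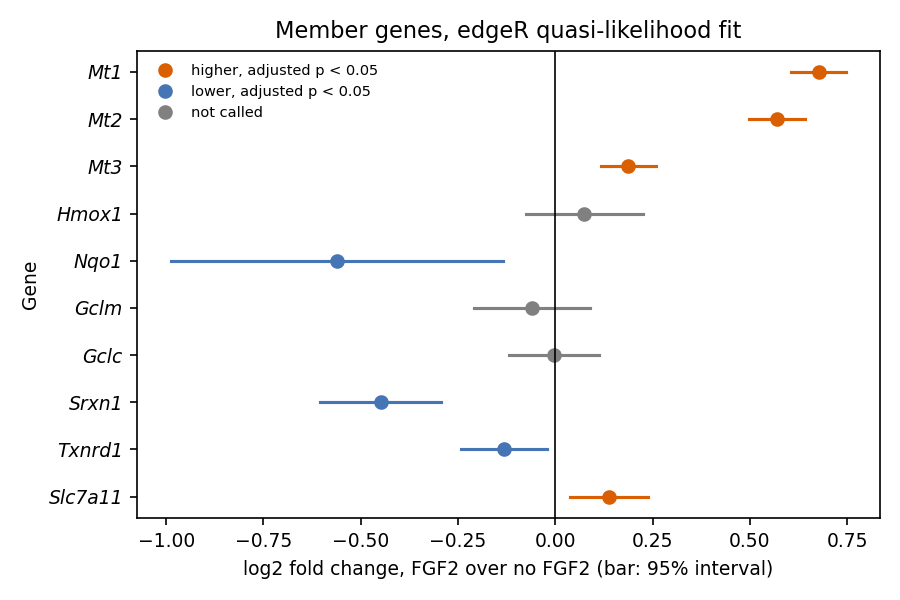
Log2 fold change (FGF2 over no FGF2) of each of the 10 genes with its 95% interval from edgeR. Orange marks genes called higher, blue those called lower and grey those not called. Mt1 (0.68) and Mt2 (0.57) stand apart from the other genes, and Nqo1 (-0.56) has the widest interval.

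Slc7a11, and after it the enzyme made of Gclc and Gclm, act in turn in glutathione synthesis. Slc7a11 (ENSMUSG00000027737, chr3:49892526-50443614, minus strand) is the cystine importer xCT, which supplies cysteine. Its levels were 184 and 193 CPM with FGF2 and 177 and 166 CPM without. The groups were apart, and the log2 fold change was 0.14 (SE 0.05, 95% interval 0.04 to 0.24, edgeR adjusted p = 0.021). DESeq2 did not call it (adjusted p = 0.21), the offsets for GC content and length gave 0.062 (edgeR adjusted p = 0.33), and leaving out noFGF2 replicate 2 gave 0.089 (edgeR adjusted p = 0.38). The call was also lost without FGF2 replicate 2 (edgeR adjusted p = 0.19). The longest transcript of this gene holds 373 bases that are 96.0% identical to Tuba1a, which had 8379 to 10582 counts. Counts on that stretch are less certain, since the mapping quality filter removes reads that match 2 places.

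Gclc and Gclm are the catalytic and modifier subunits of glutamate cysteine ligase, the enzyme that limits the rate of glutathione synthesis. Gclc (ENSMUSG00000032350, chr9:77754535-77794485) was measured at 136 and 125 CPM with FGF2 and 129 and 132 CPM without FGF2. The groups overlapped, and the log2 fold change of -0.0028 (SE 0.06, 95% interval -0.12 to 0.11, edgeR adjusted p = 0.98) changed sign between settings. Gclm (ENSMUSG00000028124, chr3:122245557-122270732) was measured at 68.7 and 74.4 CPM with FGF2 and 74.2 and 75.1 CPM without FGF2. These libraries overlapped as well (log2 fold change -0.06, SE 0.08, 95% interval -0.21 to 0.09, edgeR adjusted p = 0.57). The log2 count ratio of the subunits, Gclm to Gclc, was -0.86 ± 0.17 with FGF2 and -0.80 ± 0.01 without FGF2 (difference -0.06, n = 2, exact permutation p = 1). Gclm shares its locus with Gm17494 on the opposite strand, which had 136 to 201 counts, and the strand setting of the counting is not given in the sources used here.

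Srxn1 and Txnrd1 serve the reduction of peroxiredoxins and thioredoxin. Srxn1 (ENSMUSG00000032802, chr2:152105516-152111376) encodes sulfiredoxin, which restores overoxidized peroxiredoxins. Its levels were 53.6 and 57.3 CPM with FGF2 and 75.7 and 75.9 CPM without FGF2. Both libraries with FGF2 were well below both without, and the distance was several times the spread within either group. The log2 fold change was -0.45 (SE 0.08, 95% interval -0.61 to -0.29), a level 1.37-fold higher without FGF2 (edgeR adjusted p = 1.2e-07, DESeq2 adjusted p = 8e-04). Of the 7 antioxidant genes, Srxn1 was the one called in the same direction under each of the 14 alternatives tried, with log2 fold changes from -0.50 to -0.41.

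Txnrd1 (ENSMUSG00000020250, chr10:82833951-82897712) encodes the cytosolic thioredoxin reductase. Its levels were 138 and 144 CPM with FGF2 and 157 and 153 CPM without FGF2. The groups were apart, and the log2 fold change of -0.13 (SE 0.06, 95% interval -0.24 to -0.02) lay close to the threshold (edgeR adjusted p = 0.046, DESeq2 adjusted p = 0.24). The call was lost under 9 of the 14 alternatives, among them FGF2 replicate 1, noFGF2 replicate 1 or noFGF2 replicate 2 left out. The gene Eid3 overlaps it on the same strand and had 30 to 42 counts.

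Taken as a sum, the 7 antioxidant genes held 0.0656% and 0.0670% of gene counts with FGF2 and 0.0695% and 0.0686% without FGF2. Their median log2 fold change was -0.06, with 1 gene called higher and 3 lower, beside 20.7% and 19.9% of all genes tested. Per kb of the longest principal transcript, the 7 antioxidant genes kept nearly one order. Hmox1, Txnrd1 and Gclc were the upper 3 in each group and Gclm and Nqo1 the lowest, while Slc7a11 and Srxn1 overlapped with FGF2 (20.4 ± 0.663 and 19.7 ± 0.918 CPM per kb) and Srxn1 was above Slc7a11 without FGF2 (26.9 ± 0.0637 against 18.6 ± 0.831 CPM per kb).

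The transcript of NRF2 itself rose. Nfe2l2 was measured at 245 and 229 CPM with FGF2 and 109 and 121 CPM without FGF2, so that the lowest library with FGF2 was well above the highest without. The log2 fold change was 1.05 (SE 0.05), or 2.07-fold (edgeR adjusted p = 2.1e-84, DESeq2 adjusted p = 3e-37). Its level is that of the mRNA, whereas KEAP1 acts on the protein, which was not measured. Keap1 was not called (35.4 ± 1.78 against 39.7 ± 2.27 CPM, log2 fold change -0.16, edgeR adjusted p = 0.21).

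The 12 genes listed as NRF2 relatives, partners, repressors and parts of its degradation machinery had a median log2 fold change of 0.28. Over all genes tested, 20.7% were called higher and 19.9% lower with FGF2, while of the 12 genes 8 were called higher and none lower. Of these, Mafk (adjusted p = 0.086) and Bach2 (adjusted p = 0.13) were not called by DESeq2, nor by edgeR without noFGF2 replicate 1. Nfe2l3, a relative of NRF2, rose from 2.90 ± 0.335 to 15.3 ± 1.02 CPM (log2 fold change 2.40, edgeR adjusted p = 1.3e-24). The small MAF gene Maff rose from 1.12 ± 0.108 to 3.77 ± 0.979 CPM (log2 fold change 1.74, edgeR adjusted p = 2.2e-04). These 2 rises were large in fold but started from low levels. Mafk, another small MAF gene, rose from 6.44 ± 0.657 to 10.7 ± 0.0611 CPM (log2 fold change 0.73, edgeR adjusted p = 0.0018). Bach1, the repressor, rose as well, from 48.2 ± 2.01 to 69.4 ± 2.09 CPM (log2 fold change 0.53, edgeR adjusted p = 2.8e-09). Nfe2l1 (log2 fold change 0.29) and Sqstm1 (log2 fold change 0.28), an autophagy receptor that binds KEAP1, were also called higher.

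**Figure D4:**
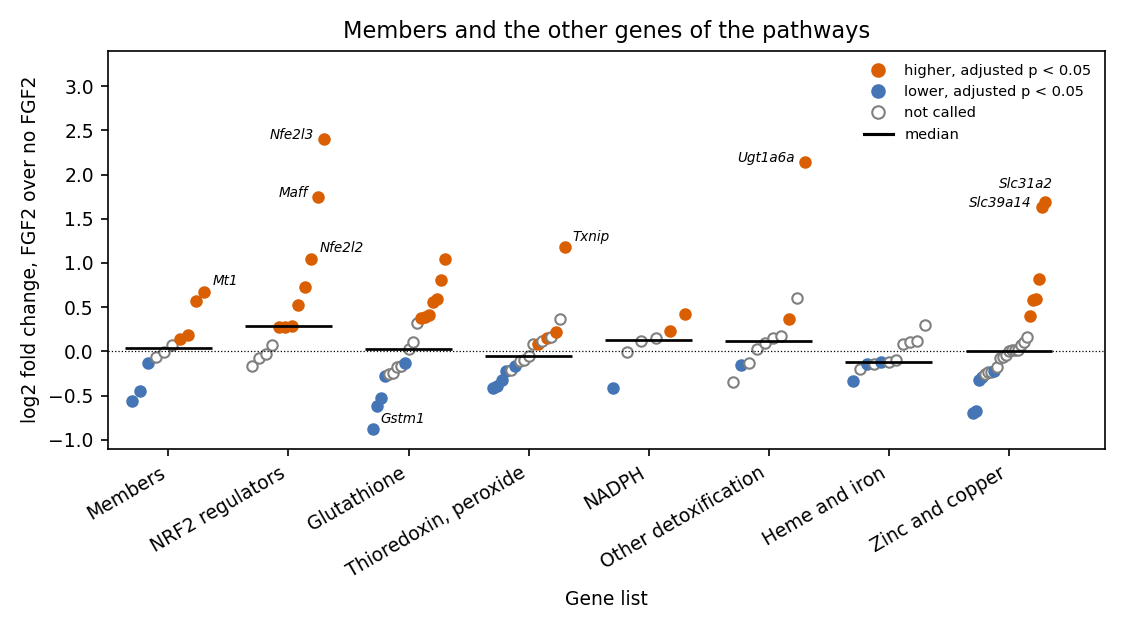
Log2 fold change (FGF2 over no FGF2) of the 10 genes and of the tested genes of 7 related lists, 1 point per gene. Filled orange and blue points passed the edgeR test as higher and lower, open points did not, and black lines are medians. The regulator list has no gene called lower, and the other lists hold medians between -0.12 and 0.13.

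Over the 7 related lists, 100 of 105 genes were tested, of which 29 were called higher and 20 lower with FGF2, beside 20.7% and 19.9% of all genes tested. The median log2 fold change was 0.02. DESeq2 called 6 of them lower, and edgeR 10 without noFGF2 replicate 1. Near-identical stretches in another gene (at least 100 bases at 95% identity) were found for 40 of the 105, including Gstm1, Txnip, Ugt1a6a, G6pdx, Txn1, Prdx1, Ftl1, Slc39a1 and Slc30a1, and the counts of these are less certain.

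Among 19 other glutathione genes, 7 were called higher and 5 lower. Gstm1, a glutathione transferase, fell from 613 ± 12.6 CPM without FGF2 to 333 ± 26.4 CPM with FGF2 (log2 fold change -0.88, edgeR adjusted p = 5.3e-112). Mgst1, the microsomal transferase, rose from 27.2 ± 0.349 to 47.7 ± 3.24 CPM (log2 fold change 0.81, edgeR adjusted p = 6.7e-14). Gstm7, a further transferase, fell from 21.7 ± 1.13 to 14.1 ± 1.63 CPM (log2 fold change -0.62, edgeR adjusted p = 7.9e-05). The transferases thus differed in direction within the list. Gpx3, the secreted glutathione peroxidase, had the largest fold of the list at a low level, 3.58 ± 0.243 against 1.72 ± 0.955 CPM (log2 fold change 1.05, edgeR adjusted p = 0.021). Its call was lost with DESeq2 (adjusted p = 0.24), without FGF2 replicate 2 and without noFGF2 replicate 1, where the log2 fold change was 0.57. Glutathione synthetase (Gss, log2 fold change 0.33, edgeR adjusted p = 0.16) and glutathione reductase (Gsr, -0.16, edgeR adjusted p = 0.21) were not called. Slc3a2, the partner chain of Slc7a11, was at 157 ± 4.16 against 173 ± 9.41 CPM (log2 fold change -0.13, edgeR adjusted p = 0.035), a call lost with DESeq2 (adjusted p = 0.23) and without FGF2 replicate 1 or noFGF2 replicate 1.

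Of 17 thioredoxin and peroxide genes, 4 were called higher and 5 lower. Txnip, which binds and inhibits thioredoxin, rose from 140 ± 3.30 to 317 ± 6.29 CPM (log2 fold change 1.18, edgeR adjusted p = 1e-128). Txn1, the cytosolic thioredoxin that Txnrd1 reduces, was lower at 45.9 ± 0.0799 against 57.4 ± 2.47 CPM (log2 fold change -0.32, edgeR adjusted p = 0.001, DESeq2 adjusted p = 0.055). Sesn2, a stress-induced sestrin, was lower at 36.3 ± 0.839 against 48.6 ± 5.59 CPM (log2 fold change -0.42, edgeR adjusted p = 6.7e-05), without noFGF2 replicate 1 at an adjusted p of 0.052 by edgeR. Txnrd3, a thioredoxin reductase best known from testis, was lower as well (log2 fold change -0.40, edgeR adjusted p = 0.041), but lost its call under 5 alternatives, among them DESeq2 (adjusted p = 0.32) and FGF2 replicate 1 left out, where the log2 fold change was -0.22. It was also lost without either noFGF2 replicate.

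The peroxiredoxins, peroxidases of which thioredoxin and sulfiredoxin serve only some, did not move one way. Of 6 tested, 2 were called higher, 1 lower and 3 were not called. Prdx1 was lower (log2 fold change -0.16, edgeR adjusted p = 0.0052), and lost its call with DESeq2 (adjusted p = 0.086) and without noFGF2 replicate 1. Prdx2, also a substrate of sulfiredoxin, was higher (log2 fold change 0.15, edgeR adjusted p = 0.0095), and lost its call with DESeq2 (adjusted p = 0.12) and without either noFGF2 replicate. Prdx6 was at 618 ± 0.936 against 583 ± 13.5 CPM (log2 fold change 0.084, edgeR adjusted p = 0.049), a call lost under 10 alternatives, among them each library left out in turn, and without noFGF2 replicate 2 the value was 0.057.

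The 6 enzymes that make NADPH, the reductant of both systems, included 2 called higher and 1 lower. G6pdx, the entry enzyme of the pentose phosphate pathway, rose from 57.5 ± 2.55 to 76.9 ± 4.49 CPM (log2 fold change 0.42, edgeR adjusted p = 6.3e-07). Tkt, a later enzyme of the same pathway, fell from 126 ± 4.66 to 95.2 ± 1.40 CPM (log2 fold change -0.41, edgeR adjusted p = 1.2e-09). Idh1, another source of NADPH, was higher (log2 fold change 0.23, edgeR adjusted p = 2.8e-04), and lost its call without noFGF2 replicate 2, at 0.15. Of 10 tested genes for other detoxification steps, 2 were called higher, Ugt1a6a (log2 fold change 2.15, from 0.516 ± 0.209 to 2.32 ± 0.133 CPM) and Aox1 (0.37). Ugt1a6a had only 7 and 4 counts without FGF2, near the limit of detection, and 22 in each library with FGF2 (edgeR adjusted p = 6.5e-04, DESeq2 adjusted p = 0.044). Ephx1 was called lower (-0.15) and lost its call with DESeq2 (adjusted p = 0.13) and without noFGF2 replicate 2, at -0.0763. Beside Hmox1, none of the 11 other heme and iron genes was called higher and 3 were called lower (Tfrc, Ftl1 and Fth1), with log2 fold changes of -0.34, -0.15 and -0.13. DESeq2 called none of these 3. The edgeR call of Tfrc was lost without noFGF2 replicate 1, that of Ftl1 without FGF2 replicate 2 or noFGF2 replicate 1, and that of Fth1 without either replicate 2.

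Among the 25 tested genes of zinc and copper handling, 6 were called higher and 5 lower. Mtf1, the metal sensor that drives Mt1 and Mt2, was not called (53.8 ± 5.68 against 56.3 ± 0.729 CPM, log2 fold change -0.07, edgeR adjusted p = 0.58). Slc30a1, the zinc exporter and another MTF1 target, was at 37.4 ± 1.16 CPM with FGF2 and 45.8 ± 4.14 CPM without FGF2. It was called lower by edgeR (log2 fold change -0.29, adjusted p = 0.009), a direction opposite to that of Mt1 and Mt2. The call was lost with DESeq2 (adjusted p = 0.16) and without FGF2 replicate 2 or noFGF2 replicate 1.

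The genes of this list with the largest changes were transporters. Slc39a14, a zinc, iron and manganese importer, rose from 49.4 ± 1.84 to 154 ± 4.45 CPM (log2 fold change 1.64, edgeR adjusted p = 2.1e-120). Slc31a2, a copper transporter, rose from 7.67 ± 0.295 to 24.8 ± 2.46 CPM (log2 fold change 1.69, edgeR adjusted p = 8.7e-25). Slc39a1, a zinc importer of the plasma membrane, rose from 88.7 ± 1.82 to 157 ± 1.17 CPM (log2 fold change 0.82, edgeR adjusted p = 6.9e-39). Slc39a4, the zinc importer best known from the gut, fell from 6.92 ± 0.118 to 4.26 ± 0.428 CPM (log2 fold change -0.70, edgeR adjusted p = 0.02), a call lost with DESeq2 (adjusted p = 0.22) and without FGF2 replicate 1 or either noFGF2 replicate. The Slc39 family of importers thus held both directions. Of its 10 tested genes, 2 were called higher, 3 lower (Slc39a4, Slc39a11 and Slc39a12) and 5 were not called. Slc39a11 (log2 fold change -0.33, edgeR adjusted p = 0.046) and Slc39a12 (-0.23, edgeR adjusted p = 0.042) were not called by DESeq2 (adjusted p = 0.34 for each). The first lost its call without FGF2 replicate 2 (-0.17) or either noFGF2 replicate, and the second without FGF2 replicate 1 (-0.0508) or either noFGF2 replicate.

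Cell type markers moved with these results. The summed level of the 11 astrocyte markers was 12720 and 12595 CPM with FGF2 and 7773 and 7722 CPM without FGF2. Much of this difference came from Gfap, at 5929 and 5626 against 2774 and 2763 CPM. Of the 10 tested, 8 were called higher, S100b was not called and Fgfr3 was called lower. The sum of the 10 oligodendrocyte lineage markers was 1859 and 1868 against 558 and 567 CPM, and that of the 12 neuron markers 3779 and 3912 against 5501 and 5482 CPM. All 5 inhibitory neuron (IN) markers and 2 of 5 excitatory neuron (EN) markers were called lower, as were 5 of 6 proliferation markers. Summed marker RNA of the other cell types was low. The 10 microglia markers summed to 23.3 to 41.3 CPM, with 4 of 6 tested called higher, and the 6 endothelial markers to 4.94 to 9.89 CPM, with 1 of 3 called higher, 1 lower and Cldn5 at 0 counts in every library. The 8 meningeal and mural markers summed to 53.6 to 68.1 CPM, with 2 of 7 called higher and 2 lower. The part of the cell makeup in the changes of the 10 genes was not tested.

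**Figure D5:**
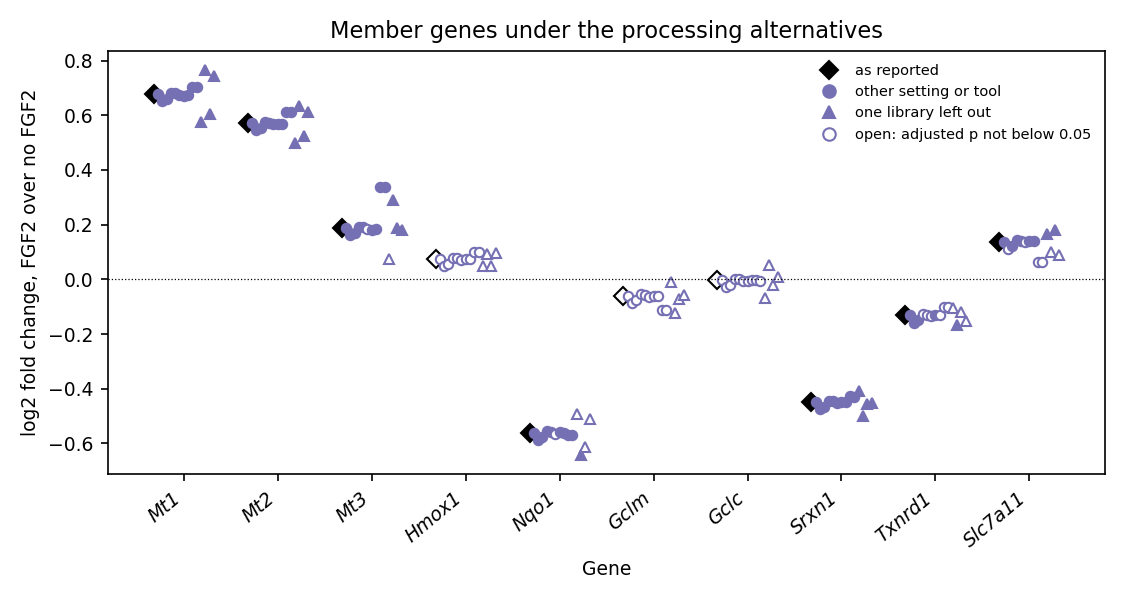
Log2 fold change (FGF2 over no FGF2) of each of the 10 genes under the reported fit (diamonds), other settings or tools (circles) and with 1 library left out (triangles). Filled symbols passed the threshold of an adjusted p-value of 0.05 and open symbols did not. Mt1, Mt2 and Srxn1 are filled throughout, and the symbols of Gclc lie on both sides of 0.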

How the data were processed

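Total RNA of 4 libraries was sequenced. The authors mapped clean reads to mm10 with HISAT2 (2.1.0 per the processing notes), kept alignments with a mapping quality of at least 20 and counted with HTSeq (0.11.2), and deposited raw counts per gene without normalization. Annotation release and strand setting are not given in the sources used here. The quality filter removes reads that match 2 places, so genes with near-identical copies can be counted too low. Of 55421 genes, 55240 were matched to GENCODE M21. A further 5 tallies that name no gene were left out (reads in no feature 43.2% to 45.9%, ambiguous 1.47% to 1.76%). All 37 mitochondrial genes are listed at 0.

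Counts were tested with the quasi-likelihood test of edgeR 4.0.16 (R 4.3.3, TMM, filterByExpr, robust) with Benjamini-Hochberg adjustment. Replicates of a group differed by more than sampling noise (chi-square per degree of freedom 2.28 and 1.76) and were kept apart. Ratios were compared by exact permutation. Per-kb levels used the longest principal transcript. Copies were sought with BLAST 2.17.0. Alternatives were scaling by RLE, by upper quartile or by totals, no filter, at least 10 counts in every library, DESeq2 1.42.0, limma-voom (limma 3.58.1), a replicate block, GC and length offsets (lowess span 0.3), and each library left out. Of the related lists, the genes named with values were up to 4 called genes with the largest change per list and the genes whose role pairs with one of the 10, to which Nfe2l1, Sqstm1, Bach2, Prdx2, Prdx6, Slc39a11 and Slc39a12 were added after their values were seen. The genes and lists were chosen with earlier results of these data known.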

Additional observations from a re-analysis of the deposited data

How the results depend on the processing

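Mt1, Mt2 and Srxn1 kept their direction and call under each of the 14 alternatives. DESeq2 called 2068 genes higher and 1931 lower, 2 of the 10 genes higher and 1 lower, and 6 related genes lower, and gave uncalled log2 fold changes of 0.19 for Mt3, -0.57 for Nqo1, -0.14 for Txnrd1 and 0.13 for Slc7a11. Leaving out each library gave 1 to 3 genes of the 10 called lower, 10 to 17 related genes called lower (10 without noFGF2 replicate 1), and log2 fold changes of 0.0735 to 0.29 for Mt3, -0.64 to -0.49 for Nqo1, -0.067 to 0.054 for Gclc, -0.17 to -0.11 for Txnrd1 and 0.089 to 0.18 for Slc7a11. The Gclm to Gclc ratio ranged from -0.18 to 0.058, Blvrb from -0.32 to 0.43 and Mtf1 from -0.18 to 0.037. Gclc changed sign with no filter (0.0019) and with at least 10 counts in every library (0.0002). Txnrd1 lost its call with no filter (-0.13), with at least 10 counts (-0.13), with GC and length offsets (-0.10) and with these and the block (-0.10). Slc7a11 lost its call with upper quartile scaling (0.11), with the offsets (0.062) and with these and the block (0.063). The causes were not tested.

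Replicate numbers are shared by the groups, but the deviations of libraries with the same number were uncorrelated (1.3e-05), and the labels do not say what the numbers mark. With the replicate block, 4 of the 10 genes were called higher and 2 lower, since Txnrd1 lost its call (-0.13, edgeR adjusted p = 0.059), and no other call among the 10 changed. With 1 library left out, the lone library of a group is assumed to vary like the other group. Counts of 54 to 104 limit the precision for Nqo1. Of 74 other genes examined, 47 kept direction and call under every alternative.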
